A study of Mus musculus with 12 samples.

Results

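The response of Aire-deficient CD8+CD28low T cells to activation was measured as the difference between 3 arrays of activated cells and 3 arrays of native cells, out of 12 arrays in the study. The measurement covered 19938 genes, each represented by its brightest transcript cluster, and every result was computed with and without activated array 3, which stood apart from the other two. Native Aire-deficient (KO) cells were freshly isolated from C57Bl/6 mice lacking Aire. Activated KO cells of the same strain and genotype had been kept for 96 h in culture with an antibody to CD3 and allogenic antigen-presenting cells (APC). The remaining 6 arrays held native and activated wild-type (WT) cells of the C57Bl/6 strain, 3 each, and are used here only where the responses of the genotypes were compared. RNA of the whole cell population was measured, so a transcript that falls because fewer cells of a type are present and one that falls because each cell holds less of it cannot be told apart. The titles call the arrays biological replicates. The sample descriptions give each array an experiment number, and no native array shares its number with an activated one. The difference on activation therefore cannot be told apart from a difference between experiments. The number of mice behind an array, the isolation procedure, the Aire allele and any step that removed the APC after culture are not stated in the labels, so p-values measure the spread between these arrays.

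Aire is a transcriptional regulator known from the thymic epithelium, where it lets medullary cells express genes of other tissues and so helps remove self-reactive T cells. CD8+CD28low T cells are a subset with little of the costimulatory receptor CD28 on the surface, described as regulatory. Engagement of the T cell receptor complex through CD3 drives a resting CD8 T cell into the cell cycle, shifts its metabolism to glycolysis and lipid synthesis, fills it with granzymes and withdraws the receptors and transcription factors that keep a resting cell circulating through lymphoid organs.

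Aire itself was at background on all KO arrays, at 5.61, 5.73 and 5.73 in native and 5.73, 5.62 and 5.89 in activated cells. It read 5.83, 5.92 and 5.70 on the native WT arrays and 5.56, 5.78 and 5.55 on the activated WT arrays, so its level does not separate the genotypes in these cells and does not check the labels. The marker genes of the labelled cell type were present in both states. Cd3e, a chain of the T cell receptor complex, lay between 12.8 and 12.9 on the native KO arrays and between 12.4 and 12.7 on the activated ones, on a log2 scale whose values ran from 3.81 to 15.4. Cd8a lay at 12.7, 12.4 and 12.6 on the native arrays and at 11.5, 12.1 and 10.8 on the activated ones. Cd4 was at background on all 6 arrays. Background was set by receptors that T cells do not use: a gene counted as at background in a group if none of the 3 arrays exceeded the 95th percentile of 1027 olfactory receptor genes on that array, and 9041 of the 19938 genes were at background in both KO groups. The transcript of Cd28 was not low on the arrays: it read 11.03, 11.97 and 11.6 on the native KO arrays and 10.99, 11.3 and 9.98 on the activated ones. The array reads RNA, whereas the label names a cell population. Foxp3, the transcription factor of CD4 regulatory T cells, read 6.30, 6.27 and 6.32 in native cells. Only native array 1 exceeded its background percentile, which was 6.22. In activated cells Foxp3 was at background, so it lay at or close to background in both states.

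The activated arrays were less alike than the native ones. Between replicates, the typical gene had a standard deviation (median over genes) of 0.247 in activated KO and 0.122 in native KO cells (n = 3 each). Activated arrays 1 and 2 correlated with each other across genes at r = 0.989, whereas array 3 correlated with them at 0.958 and 0.938. Array 3 had the narrowest interquartile range of all 12 arrays, 2.19, and the highest olfactory receptor median, 6.34, against 5.58 and 5.52 on activated arrays 1 and 2. Against the mean of those arrays its median deviation was 0.31 over the dimmest 25% of genes and -0.50 over the brightest 25%. Xist, the RNA of the inactive X chromosome, also set the first array of each KO group apart from the other two. It read 5.26, 9.97 and 10.2 on the native arrays and 4.98, 10.7 and 9.34 on the activated ones, while the Y-linked Kdm5d lay between 7.32 and 9.16 on all 6. The part of these differences in the results was not tested.

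**Figure D1:**
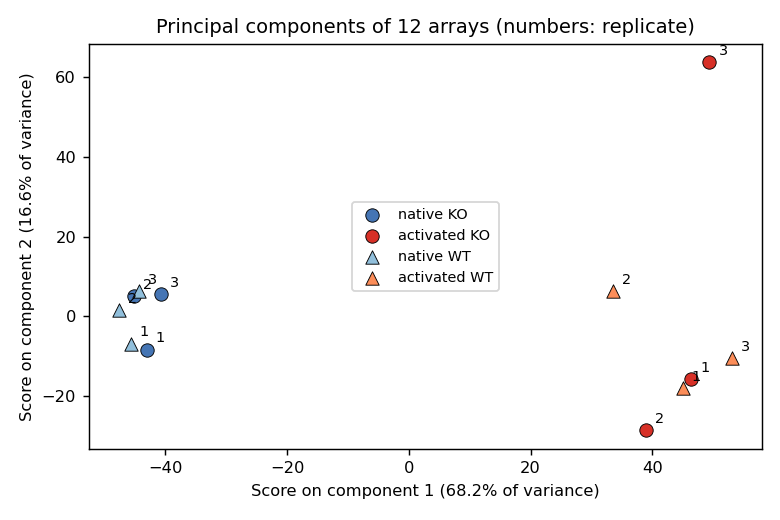
Scores of the 12 arrays on the first and second principal component over the 19938 genes; each point is 1 array, circles are KO and triangles WT, and the number is the replicate. Native and activated arrays separate along component 1, and activated KO array 3, at 63.8 on component 2, lies away from all others.

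With all arrays, 1739 genes rose and 2263 fell on activation of KO cells at a limma adjusted p under 0.05, which is 8.72% and 11.4% of the genes tested. Without array 3 the calls were 2668 higher (13.4%) and 2223 lower (11.1%). Genes called in both fits numbered 1665 higher and 1981 lower, and no gene was called in opposite directions. Rises made up 43.5% of the calls with all arrays and 54.5% without array 3; quantile normalization of the arrays gave 55.3%. Among the calls of the fit with all arrays, 818 rises and 806 falls exceeded 1 on the log2 scale, and 270 rises and 128 falls exceeded 2. The median difference of all genes was 0.02 with array 3 and -0.05 without it. The 3 activated arrays all lay above the 3 native ones for 13.8% of genes and all below for 17%.

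The largest rises were in granzymes, the interleukin 2 receptor and genes of lipid and energy metabolism. Gzmc, a granule protease, was at background in native cells at 5.27, 5.41 and 5.96 and reached 11.4, 11.1 and 12.4 in activated cells. It was thus at least 5.35 higher on the log2 scale (adjusted p = 7.46e-06). Il2ra, the alpha chain that gives the interleukin 2 receptor its high affinity, read 7.15, 6.99 and 7.39 in native cells and 12.8, 12.5 and 12.9 in activated cells. The difference of 5.55 ± 0.20 (SE, n = 3) is 47.0-fold, and it was 5.50 without array 3. For both genes the groups lay far apart; the activated arrays were close together for Il2ra and spread over more than 1 for Gzmc. Lrrc32, the docking receptor for latent TGF-beta, rose by at least 4.38, from 5.31, 5.58 and 5.56 to 10.8, 10.98 and 10.2. Zbtb32, a zinc finger repressor of lymphocyte activation genes, rose by 4.97 ± 0.45 and Gzmb, the main granzyme of cytotoxic T cells, by 4.82 ± 0.25.

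The remaining large rises depended in size on array 3. Scd1, which desaturates stearoyl-CoA, was at background in native cells and read 11.5, 11.9 and 6.76 in activated cells, so that array 3 lay far below the other two. Its bound was at least 3.74 with array 3 and at least 5.37 without it. Ak4, a mitochondrial adenylate kinase, read 10.999, 10.9 and 7.52, and Bnip3, a mitochondrial protein induced by hypoxia, 11.6, 11.7 and 8.94. Capg, an actin capping protein, did not show this gap, with 11.5, 11.2 and 11.1 against 6.78 to 6.94 in native cells.

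The largest falls were in a gut-homing receptor, regulators of resting cells and immediate early genes, joined by genes of other cell types. Ccr9, the receptor for the small-intestinal chemokine CCL25, read 11.2, 10.5 and 10.4 in native cells and was at background in activated cells at 5.12, 5.17 and 5.62, a log2 difference of at least -4.11 (adjusted p = 2.09e-07). Rgs2, which limits G protein signalling, changed by -4.49 ± 0.27 and Dtx1, a Notch pathway ubiquitin ligase linked to T cell anergy, by -4.22 ± 0.14. Klf2, the factor that sustains expression of lymph node homing genes, read 10.8, 11.7 and 11.3 and then 7.75, 7.36 and 6.51. Its target S1pr1, the receptor by which lymphocytes leave lymphoid organs, was tight in native cells at 11.9, 11.8 and 11.8 but spread in activated cells over 7.76, 9.34 and 6.35, a change of -3.99 ± 0.82. Tagap, a GTPase activating protein of T cells, changed by -4.07 ± 0.36, and Fosb, a subunit of the AP-1 transcription factor, by -4.44 ± 0.50. Car1, a carbonic anhydrase abundant in red cells, and the neutrophil granule genes Ngp and Lcn2 complete the 10 largest falls and are described with the markers of other cells.

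**Figure D2:**
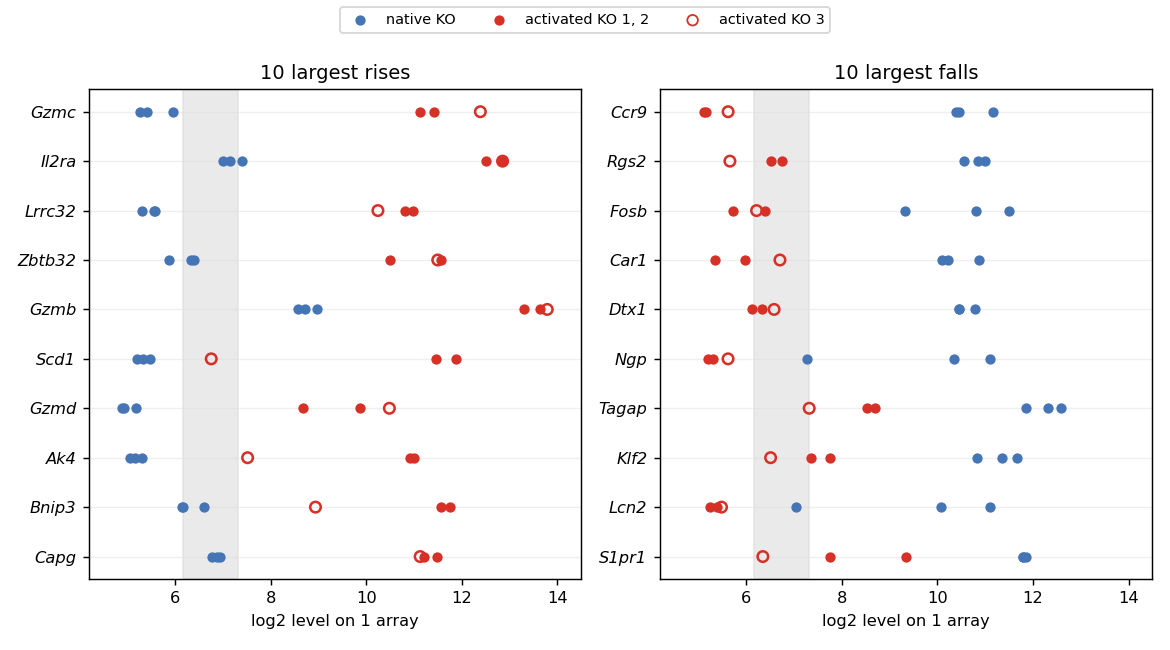
Log2 level on each KO array of the 10 genes that rose most and the 10 that fell most; blue points are native arrays, filled red points activated arrays 1 and 2, open red circles activated array 3. The grey band spans the background percentile of the 6 arrays. For Scd1, Ak4 and Bnip3 the open circle lies well below the filled points, at 6.76, 7.52 and 8.94.

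Genes of the cell cycle rose nearly as a block. Of 30 measured genes of mitosis and the spindle checkpoint, 29 rose and none fell, with a median difference of 2.83, against 8.72% of all genes that rose. Without array 3 all 30 rose, with a median of 2.93. Bub1, a kinase of the spindle checkpoint, had the largest rise: 6.58, 6.58 and 6.70 in native cells and 10.8, 10.7 and 10.7 in activated cells (4.13 ± 0.13). Cdk1, the kinase that starts mitosis, rose by 3.02 ± 0.24. Mki67, the antigen used to mark cycling cells, already read 9.05, 8.77 and 9.45 in native cells and rose to 11.7 on each activated array. Racgap1, a cytokinesis regulator, differed by 0.43 and passed the test only without array 3.

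DNA replication followed the same pattern. Of 31 genes of replication and nucleotide synthesis 29 rose in both fits (93.5%, against 8.72% of all genes with array 3). Their median was 1.58 with array 3 and 1.66 without. Tk1, thymidine kinase, read 6.21, 6.66 and 6.91 and then 9.88, 9.75 and 9.63, and Rrm2, the regulated subunit of ribonucleotide reductase, rose by 3.12 ± 0.21. The helicase genes Mcm2 to Mcm7 rose by 0.59 to 1.32. Pcna, the sliding clamp of DNA polymerase, differed by 0.33 and the licensing factor gene Cdt1 by -0.20; neither passed the test. Replication-dependent histone genes, which are copied in S phase to pack new DNA, rose for 23 of 26 measured members (88.5%, against 8.72% of all genes). H1f5 read 8.52, 8.29 and 9.07 in native and 11.8, 11.4 and 11.8 in activated cells. Array 3 did not lie below the others for H1f5. Histone genes are near-identical copies of one another, so that reads of one may come in part from another.

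Promoter sequences of the cell cycle genes were searched for motifs known for such genes. The replication and mitosis lists were drawn up with earlier results known and hold known targets of the factors that bind these motifs. Their shares are therefore not independent of the choice of genes. RefSeq promoters (GRCm38.p6, 250 bases before to 50 bases after the start) were at hand for 15614 of the genes tested. The E2F motif, TTTGGCGC or TTTCCCGC on either strand, was found in 9 of 26 replication promoters (34.6%), in 6.79% of the promoters of all genes that rose, in 3.12% of those that fell and in 2.56% of all. The 4 windows below belong to replication genes that rose, read along the gene's strand with the motif in capitals; they show the element that E2F factors, which control entry into S phase, are known to bind.
Cdc6 (chr11:98907983-98908050, plus strand): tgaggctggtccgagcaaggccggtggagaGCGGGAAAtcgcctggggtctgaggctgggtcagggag
Mcm5 (chr8:75109330-75109397, plus strand): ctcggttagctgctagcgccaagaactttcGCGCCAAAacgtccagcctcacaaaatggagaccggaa
Mcm6 (chr1:128359778-128359845, minus strand): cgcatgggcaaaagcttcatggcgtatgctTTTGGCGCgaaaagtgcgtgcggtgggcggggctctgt
Mcm7 (chr5:138172011-138172078, minus strand): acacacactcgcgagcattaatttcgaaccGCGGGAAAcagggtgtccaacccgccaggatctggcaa
Cdc6, which loads the helicase onto origins, rose from 6.58, 6.14 and 6.44 to 8.49, 8.01 and 7.73. Mcm5, Mcm6 and Mcm7, subunits of that helicase, rose by 1.15, 0.99 and 1.32.

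For the mitotic genes the motif searched was the cell cycle homology region, CHR, TTTGAA on either strand, through which the DREAM and MuvB complexes are known to time genes of late cell cycle phases. It was found in 18 of 24 promoters of the mitosis list (75%) and in 17.3% of all promoters. Over all genes that rose the share was 18.9%, close to that of all promoters, and 212 of 1761 promoters of genes that fell held it. The windows of 4 mitotic genes that rose are shown with the motif in capitals.
Cdk1 (chr10:69352913-69352957, minus strand): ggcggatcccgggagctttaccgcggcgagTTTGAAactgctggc
Cdc20 (chr4:118437344-118437391, minus strand): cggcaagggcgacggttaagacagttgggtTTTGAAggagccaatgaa
Top2a (chr11:99024190-99024242, minus strand): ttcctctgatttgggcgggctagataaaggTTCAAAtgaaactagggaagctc
Mki67 (chr7:135716460-135716525, minus strand): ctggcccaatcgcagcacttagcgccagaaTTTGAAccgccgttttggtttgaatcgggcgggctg
In the Cdk1, Cdc20 and Top2a windows the motif starts 15, 18 and 23 bases before the annotated start. Cdc20, the activator of the anaphase-promoting complex, rose by 2.24 and Top2a, which untangles sister chromatids, by 3.24. A motif match describes the letters of the window and shows no binding.

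The regulators of the G1 phase were mixed. Of 19 genes, 4 rose (21.1%) and 3 fell (15.8%) with all arrays, against 8.72% and 11.4% of all genes, and 7 rose and 3 fell without array 3. Cdk6, the kinase partner of D cyclins, rose from 9.13, 9.26 and 9.26 to 11.6, 11.1 and 11.7, and Cdk2, Cdk4 and the inhibitor gene Cdkn2c rose by 1.68, 0.90 and 1.60. The antiproliferative genes Btg1, Tob1 and Btg2 fell by 1.84, 1.77 and 1.47 on the log2 scale. Btg1 was evenly high at 12.6 on each native array. The D cyclin gene Ccnd2 and the inhibitor gene Cdkn1b, which holds resting cells out of the cycle, differed by -0.21 and -0.94 without passing the test; without array 3 Cdkn1b differed by -0.32.

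Genes of glycolysis and the hypoxia response rose for 15 of 20 measured members with array 3 (75%) and for 19 without it. Of all genes 8.72% and 13.4% rose. The median of the list went from 1.76 to 2.03. The mean level of the list lay at 8.67, 8.73 and 8.73 on the native arrays and at 10.96, 11.2 and 9.64 on the activated arrays, so that array 3 stood between the native arrays and the other activated ones. Pgk1, which makes ATP in glycolysis, read 10.3, 10.5 and 10.7 and then 13.2, 13.1 and 12.4. Hk2, the inducible hexokinase, rose by at least 2.17 and Slc16a3, the lactate exporter, by 3.31. Slc2a3, a high affinity glucose transporter, read 11.4, 11.9 and 9.22 in activated cells against 8.72 to 8.80 in native cells. Egln3, an oxygen sensor that is itself induced in hypoxia, was one of the genes most moved by array 3: it read 10.9, 11.7 and 7.15, the last within the native range of 7.01 to 7.19. Its difference was 2.82 ± 0.83 with array 3 and 4.198 without it. Ndrg1, another hypoxia-induced gene, read 10.7, 11.4 and 7.21 and passed the test only without array 3 (2.11, adjusted p = 0.0765, against 3.39, adjusted p = 1.46e-07).

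Cholesterol and fatty acid synthesis showed 20 of 23 genes higher with array 3 (87.0%) and all 23 without it, with medians of 1.504 and 1.61. Of all genes 8.72% and 13.4% rose. Sqle, squalene epoxidase, rose from 6.79, 6.71 and 6.77 to 9.76, 9.79 and 9.20. Scd2, a desaturase like Scd1, reached 13.0, 12.8 and 12.1 from 9.34 to 9.37. Hmgcs1, the enzyme that feeds the mevalonate pathway, rose by 1.98 ± 0.29. The 3 genes called only without array 3 were Srebf1, a master regulator of lipid synthesis, Acly, which makes cytosolic acetyl-CoA, and Insig1, the brake on SREBP processing, at 0.79, 0.61 and 1.02 in that fit.

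Genes of a list for ATF4, amino acid and one-carbon metabolism rose for 12 of 22 members with array 3 (54.5%) and 13 without. None fell. Of all genes 8.72% and 13.4% rose. Asns, asparagine synthetase, read 6.81, 6.38 and 6.91 and then 11.2, 11.02 and 9.82 (3.97 ± 0.34). Psat1 of serine synthesis rose by 2.17 ± 0.18 and Mthfd2 of the mitochondrial folate cycle by 2.01 ± 0.22. The transcription factor gene Atf4 itself differed by -0.12 and Ddit3, a stress factor downstream of it, by -0.44, and neither passed the test. The motif TGATGNAA, known to be bound by ATF4, was in 4 of 19 promoters of the list (21.1%) and in 3.62% of all promoters. Over all genes that rose it was in 42 of 1384 promoters (3.035%), and over those that fell in 49 of 1761 (2.78%). The list was named for ATF4 and holds known targets of it, so its share is not independent of the choice of genes. The windows of Asns and Chac1, a glutathione-degrading enzyme that rose by at least 1.38, are given because both genes are known ATF4 targets; the capitals mark the motif.
Asns (chr6:7693210-7693262, minus strand): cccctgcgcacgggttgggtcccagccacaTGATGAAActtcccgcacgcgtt
Chac1 (chr2:119351019-119351086, plus strand): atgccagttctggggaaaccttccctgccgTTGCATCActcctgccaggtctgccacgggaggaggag
Asns thus combined the largest rise of the list with a match 23 bases before its start.

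Respiratory chain and ATP synthase genes rose for 23 of 79 members (29.1%, against 8.72% of all genes), with a median of 0.33. Without array 3, 33 rose. Sdhb of complex II had the largest rise, 1.15 ± 0.22. Proteasome subunits rose for 6 of 30 members, a share of 20% against 8.72% of all genes; of the 7 called without array 3, 4 were called in both fits. Psma1, a subunit of the core particle, rose by 0.90 ± 0.16. Ribosome biogenesis genes did not exceed the shares of all genes, with 1 of 22 higher and 1 lower (4.55% each, against 8.72% and 11.4%).

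Of 20 genes of endoplasmic reticulum chaperones 6 rose (30%) and 2 fell (10%), against 8.72% and 11.4% of all genes. Without array 3, 5 rose and 2 fell, and 4 of the rises were called in both fits. Sdf2l1, a co-chaperone, rose from 8.94, 8.83 and 8.91 to 10.6, 10.1 and 10.9, and Xbp1, a transcription factor of the secretory response, by 1.08 ± 0.23. Dnajb9, a co-chaperone of BiP, fell from 12.04, 12.5 and 12.2 to 9.10, 8.99 and 7.85, and Hspa5, which encodes BiP, fell from 11.8, 12.1 and 11.9 to 11.2, 10.6 and 11.5. The motif TGACGTGG, known to be bound by XBP1, was in 0 of 18 promoters of this list within the windows and in 0.916% of all promoters.

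Cytotoxic genes moved in both directions. Of 18 genes 9 rose (50%) and 4 fell (22.2%) with array 3, against 8.72% and 11.4% of all genes. Without it 8 rose and 2 fell, against 13.4% and 11.1% of all genes. The falls were thus near the share of all genes in that fit. Falls called in both fits numbered 2. Besides Gzmb and Gzmc, Gzmd rose by at least 3.38 and Gzme by at least 3.39. Gzmd read 9.86, 8.67 and 10.5 in activated cells, with array 3 the highest. The genes Gzmc to Gzmg are close copies in 1 cluster, and signal of one may come in part from another. Serpinb9 and Serpinb6b, inhibitors of granule proteases, rose by 2.94 and 2.72, and Fasl, the death ligand, by 1.64. Gzma fell from 10.1, 8.90 and 9.23 to 8.45, 7.34 and 7.48, and Gzmm fell by 1.10 on the log2 scale in the same direction. Prf1, perforin, read 10.3, 9.29 and 9.52 in native and 11.3, 10.5 and 11.4 in activated cells. These groups did not overlap, but the difference of 1.402 ± 0.53 did not pass the test (adjusted p = 0.0925).

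Among cytokine genes 7 of 22 rose (31.8%) and 1 fell (4.55%), against 8.72% and 11.4% of all genes. Lta, lymphotoxin alpha, had the largest rise, from 6.93, 7.14 and 7.08 to 9.83, 8.41 and 9.51. Tgfb1, which acts to restrain T cells, rose by 0.93, and Csf2 and Lif rose by at least 0.86 and at least 0.82. Il10, an inhibitory cytokine, read 7.52, 6.85 and 5.66 in activated cells from a native level at background; neither fit called it (adjusted p = 0.202 and 0.0596). Ifng, the signature cytokine of effector CD8 cells, was spread widely over the activated arrays at 9.28, 6.86 and 11.2 against 9.28, 10.6 and 9.998 in native cells, and neither fit called it. The single fall was that of Il2, at background on all 6 arrays, for which no fold is given.

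Chemokine genes showed no rise. Ccl5, an attractant kept in stock by memory CD8 cells, fell from 13.2, 13.3 and 13.2 to 10.9, 11.01 and 11.2, and Xcl1, which attracts cross-presenting dendritic cells, fell by 1.32 on the log2 scale. Ccl3, made early by activated CD8 cells, read 10.4, 7.99 and 12.3 in activated cells, array 3 above all native arrays (11.1 to 11.6) and the others below them. It passed the test as a fall only without array 3 (-2.14, against -1.10).

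Cytokine receptor chains moved apart. Il12rb2, the signalling chain of the interleukin 12 receptor, rose from 7.77, 7.35 and 7.07 to 11.6, 11.7 and 11.1, and Il12rb1 by 2.28. Il6ra fell from 10.04, 9.86 and 10.05 to 6.25, 7.21 and 6.44, and Il6st, Il27ra and Il7r changed by -2.27, -1.58 and -1.31. In all, 4 of 16 chains rose (25%) and 5 fell (31.25%) with array 3, against 8.72% and 11.4% of all genes. In the SOCS family, whose members damp cytokine signals, Socs2 rose by at least 3.53 and Cish by 2.39 ± 0.37, and Socs3 fell from 9.02, 9.76 and 9.48 to 7.36, 7.85 and 6.46.

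Of 19 costimulatory and activation receptors 8 rose (42.1%) and 5 fell (26.3%), against 8.72% and 11.4% of all genes. Tnfrsf9, the receptor 4-1BB, rose from 7.87, 8.09 and 8.25 to 12.3, 11.8 and 12.1. Cd80, a ligand of CD28 and CTLA-4 that activated T cells can carry, rose by at least 2.20. Icos, a costimulator related to CD28, read 11.1, 11.1 and 9.85 after 9.83, 9.70 and 9.72 and rose by 0.91 with array 3 and 1.31 without it. Slamf6, a receptor of resting and memory cells, read 11.02, 11.03 and 11.1 and then 9.33, 10.3 and 7.06. Cd69, an early activation and retention marker, fell by 1.97 on the log2 scale.

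Inhibitory receptors rose for 5 of 15 genes (33.3%) and fell for 4 (26.7%), against 8.72% and 11.4% of all genes. Entpd1, the ectoenzyme CD39 that breaks down extracellular ATP, rose from 6.90, 6.57 and 6.76 to 9.97, 9.75 and 10.1. Havcr2, which encodes TIM-3, and Lag3, a receptor for MHC class II, rose by at least 2.13 and at least 2.20. Nt5e, the CD73 enzyme that acts after CD39 to make adenosine, fell from 9.76, 9.30 and 9.58 to 7.69, 8.40 and 6.04, in the direction opposite to Entpd1. Tox, a factor of chronically stimulated cells, fell from 9.86, 9.93 and 10.1 to 7.48, 8.52 and 7.28. Ctla4, the inhibitory receptor for CD80 and CD86, read 9.60, 11.1 and 6.46 after 7.77, 8.57 and 8.53, so that array 3 lay below and the others above all native arrays. It differed by 0.76 with array 3 (adjusted p = 0.641) and rose by 2.06 without it (adjusted p = 0.00241). Pdcd1, which encodes PD-1, differed by 0.55 and was not called in either fit.

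**Figure D3:**
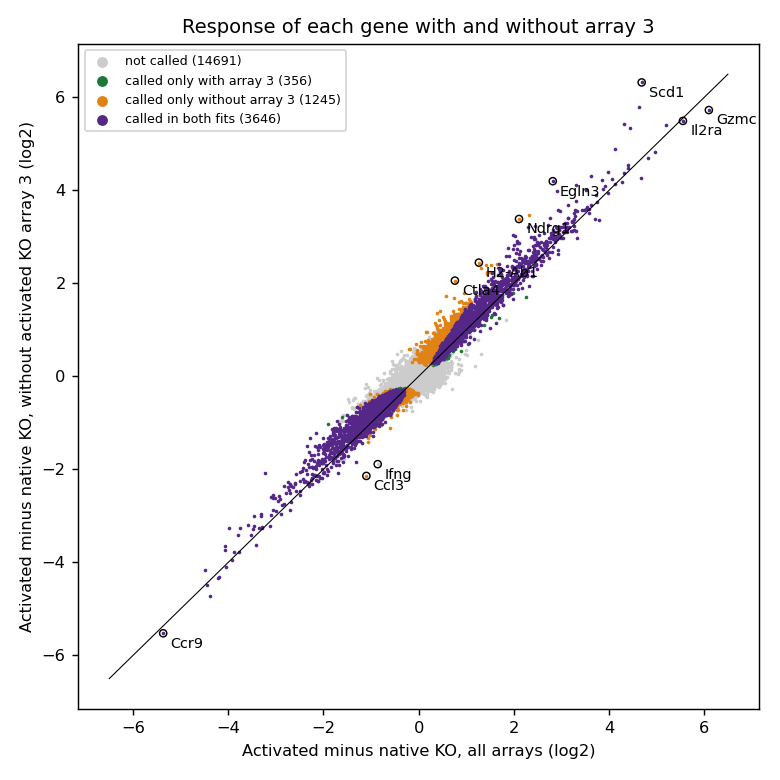
Each point is 1 gene: its activated minus native difference in KO cells with all arrays on the horizontal axis and without activated array 3 on the vertical axis, both log2, with the line of equality and colours for the calls. Scd1, Egln3, Ndrg1, H2-Ab1 and Ctla4 lie above the line and Ifng and Ccl3 below it, while Il2ra, at 5.55 and 5.50, lies on it.

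Genes linked to regulatory T cells did not move as a group: 8 of 22 rose (36.4%) and 6 fell (27.3%) with all arrays. The shares of all genes were 8.72% and 11.4%. Without array 3, 9 rose and 6 fell. Those that rose include Il2ra, Lrrc32, Capg, Entpd1, Tgfb1, Tnfrsf18 (a TNF receptor, 1.53) and Fgl2 (a secreted suppressive protein, at least 2.40). Those that fell include Itgae, the integrin that binds E-cadherin on epithelium, from 9.62, 9.49 and 9.73 to 5.60, 6.82 and 5.86, and both TGF-beta receptor genes, Tgfbr1 and Tgfbr2, by -1.18 and -0.84. Ikzf2, the factor Helios, differed by -0.30 and was not called.

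Genes of naive and central memory cells fell for 17 of 20 members with array 3 and 16 without it, and none rose; 11.4% of all genes fell. Their mean level lay at 11.1 on each native array and at 9.14, 9.73 and 8.20 on the activated ones, and their median difference was -1.93 with array 3 and -1.42 without. Ccr7, the lymph node homing receptor, read 12.8, 13.1 and 12.9 and then 10.9, 11.9 and 9.55. Lef1 and Foxo1, transcription factors of quiescent T cells, changed by -1.45 and -2.01. Klf3, Actn1 and Igfbp4 changed by -3.75, -3.45 and -2.69. Array 3 had the lowest activated level for Klf2, S1pr1 and Ccr7 alike.

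Effector and memory transcription factors included 7 of 20 genes that rose (35%) and 3 that fell (15%), against 8.72% and 11.4% of all genes. Irf8 rose from 7.47, 6.89 and 7.50 to 10.4, 9.40 and 10.8, and Irf4, the factor that scales with receptor signal strength, by 2.21. Prdm1 and Id2, drivers of effector differentiation, rose by 1.39 and 0.99. Tbx21 and Eomes, the T-box factors of CD8 effector cells, were well expressed in both states and were not called: Tbx21 read 9.69, 9.47 and 9.29 and then 9.27, 9.78 and 9.005. Ahr, the aryl hydrocarbon receptor, fell by at least 0.63 (bound -0.63).

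T cell receptor signalling genes fell for 9 of 21 members (42.9%) with array 3 and 8 without it, against 11.4% and 11.1% of all genes. With array 3, 1 member rose (4.76%, against 8.72% of all genes), and without it 2 rose. Trat1, an adaptor of the receptor complex, fell from 9.54, 8.52 and 8.51 to 5.76, 6.45 and 5.84. Cd247, the zeta chain, read 10.4, 10.6 and 10.6 and then 9.53, 10.1 and 8.74. Cd3e, Cd3g and Cd3d differed by -0.32, -0.51 and -0.50 without passing the test, and Cd3g and Cd3d by -0.17 and 0.14 without array 3. Immediate early genes are switched on within minutes by receptor signals and by handling of cells. They fell for 12 of 19 members (63.2%, against 11.4% of all genes) and rose for none. Fos, Jun, Nr4a1 and Dusp1 changed by at least -3.05 (bound), -3.05, -3.06 and -3.30. Egr1 read 9.26, 7.47 and 7.29 after 8.74, 9.50 and 9.23, overlapped with the native arrays and was not called.

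Homing receptors and integrins fell for 8 of 25 genes in either fit (32% against 11.4% of all genes). They rose for 3 with array 3 (12%, near the 8.72% of all genes) and 6 without it. With Ccr9 and Itgae, the integrin chains Itga4 and Itgb7, which pair to bind gut endothelium, fell: Itgb7 read 9.84, 9.96 and 9.92 and then 7.997, 8.99 and 6.95, and Itga4 changed by -3.87. Ccr2 and Ccr4, receptors for inflammatory and skin-homing chemokines, rose: Ccr2 read 7.20, 6.89 and 7.02 and then 10.1, 10.2 and 10.5. Cxcr6, a receptor of tissue-resident T cells, reached 11.03, 11.5 and 9.40 from 8.60 to 9.47, so that array 3 fell within the native range.

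NK-type receptors and adaptors rose for 6 of 14 genes (42.9%) and fell for 4 (28.6%), against 8.72% and 11.4% of all genes. The members that rose belong to 1 gene complex: Klrk1, which encodes NKG2D, went from 7.99, 7.77 and 7.58 to 10.4, 10.2 and 9.89, and Klrc1, its inhibitory relative NKG2A, from 9.29, 9.09 and 8.996 to 11.3, 11.7 and 10.7. Klrd1 (CD94), the partner of NKG2A, rose by 0.87, while Klrc2 and Klrc3, near-identical to Klrc1 in part, rose by 1.26 and 1.65. Cd7 fell with a wide spread, from 12.3, 12.1 and 12.2 to 9.20, 11.1 and 6.62. S100, annexin and galectin genes of effector cells rose for 10 of 15 members (66.7%, against 8.72% of all genes) and for 12 without array 3. Anxa2 rose by 3.26, S100a6 by at least 3.31 and Lgals3 by 3.14, and Lgals1 reached 12.3, 12.2 and 12.2 from 10.5 to 10.7.

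Interferon-stimulated genes fell for 5 of 26 members with array 3 (19.2%, against 11.4% of all genes) and 3 without it. The falls called in both fits numbered 3. With array 3, 1 member rose (3.85%, against 8.72% of all genes), and without it 3 rose. Irf1 read 10.97, 11.3 and 11.2 and then 9.53, 9.93 and 8.34. Ifit3, an antiviral effector, fell from 9.99, 9.19 and 9.72 to 8.996, 7.17 and 7.46 with array 3, and was not called without it (adjusted p = 0.0511). Genes of the BCL2 family, which set the threshold for apoptosis, rose for 3 of 13 members (23.1%) and fell for 1 (7.69%). The shares of all genes were 8.72% and 11.4%. The survival gene Bcl2l1 rose from 6.88, 6.86 and 6.66 to 8.28, 7.57 and 8.09, and Mcl1, another survival gene, fell from 11.04, 10.7 and 10.8 to 9.94, 10.1 and 9.24. Of 8 GIMAP GTPases, survival factors of resting lymphocytes, Gimap7 rose by 2.05 and none fell in either fit; without array 3 Gimap4 and Gimap1 also rose, by 0.66 and 0.64.

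**Figure D4:**
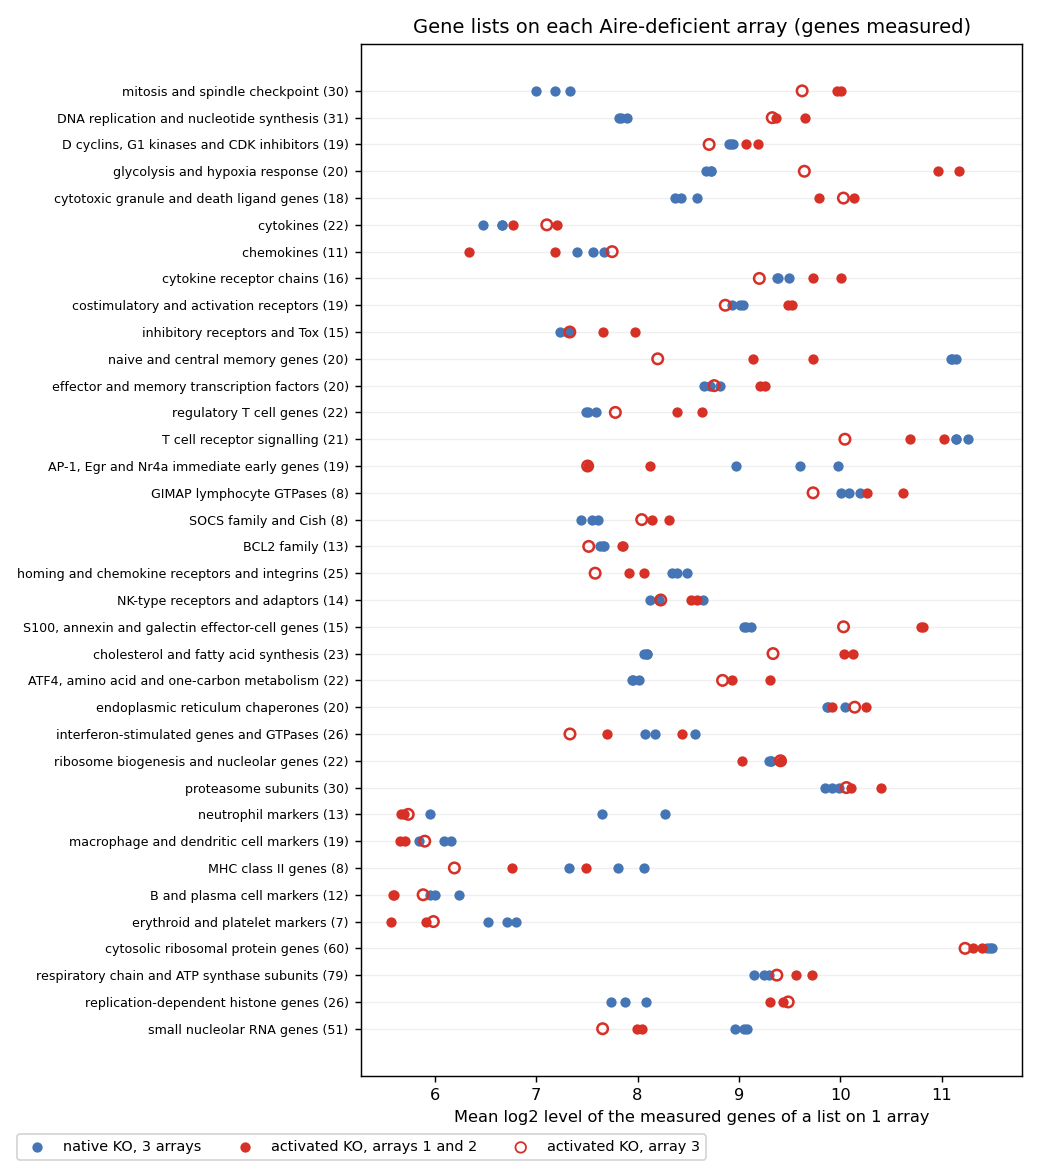
Mean log2 level of the measured genes of each list on each KO array; blue points are native arrays, filled red points activated arrays 1 and 2, open circles activated array 3, with the number of genes measured in brackets. In glycolysis the open circle, at 9.64, lies between the native arrays and the other activated arrays, whereas for histones, at 9.49, it lies with the other activated arrays.

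Small nucleolar RNA genes, which guide chemical modification of ribosomal RNA, fell for 42 of 51 members with array 3 (82.4%) and 39 without it. Of these 37 fell in both, and no member rose. Their median difference was -0.97 and -0.89. Of all genes 11.4% and 11.1% fell. Snord37 fell from 9.50, 10.1 and 9.76 to 7.30, 7.56 and 6.01. Many of these genes lie in introns of host genes, and a transcript cluster can take up signal of the host. Cytosolic ribosomal protein genes fell for 9 of 60 members (15%, near the 11.4% of all genes), 7 of them in both fits, and rose for 1, Rps27l, a stress-induced relative of Rps27, by 1.75. The largest fall was that of Rpl12, from 9.31, 9.46 and 9.30 to 7.78, 7.59 and 7.63.

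Among 300 microRNA genes 5 rose (1.67%) and 24 fell (8%), shares below the 8.72% and 11.4% of all genes, and 201 were at background in both groups. A transcript cluster here reads the precursor or host transcript, not the mature RNA. Mature sequences from RefSeq (GRCm38.p6) were matched for all 29; those shown are the 5p sequences of the families with more than 1 called member and the 3p sequence of the gene with the largest fall, with the seed, bases 2 to 8, in capitals.
mmu-let-7a-5p: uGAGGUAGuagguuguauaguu
mmu-let-7d-5p: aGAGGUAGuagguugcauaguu
mmu-miR-98-5p: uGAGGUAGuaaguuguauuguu
mmu-miR-30a-5p: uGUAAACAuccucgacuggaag
mmu-miR-30e-5p: uGUAAACAuccuugacuggaag
mmu-miR-15a-5p: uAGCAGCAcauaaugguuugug
mmu-miR-16-5p: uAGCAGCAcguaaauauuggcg
mmu-miR-301a-5p: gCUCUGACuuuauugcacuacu
mmu-miR-301b-5p: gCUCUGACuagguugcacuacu
mmu-miR-505-3p: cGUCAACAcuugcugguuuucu
The 3 called genes of the let-7 seed, GAGGUAG, were all called lower. Mirlet7d fell from 7.77, 8.09 and 8.01 to 7.31, 6.95 and 7.50, and Mir98 by 0.77 on the log2 scale. Mirlet7a-1 read 6.08, 6.09 and 6.43 in native cells, where only array 3 exceeded its background percentile. It was at background in activated cells, and no size of its fall is given. Of the genes with the seed GUAAACA, Mir30e fell from 7.82, 8.58 and 7.64 to 6.59, 6.34 and 5.95, and Mir30a was called lower at background on all 6 arrays. The genes with the seed AGCAGCA went apart: Mir15a rose from 7.02, 7.09 and 6.99 to 8.65, 8.86 and 7.77, and Mir16-2, which lies on another chromosome, fell from 7.61, 7.74 and 7.54 to 6.83, 7.29 and 6.57. Both called genes with the seed CUCUGAC were higher: Mir301b read 6.37, 6.87 and 6.28 and then 7.26, 7.15 and 8.21, a rise that did not pass without array 3 (adjusted p = 0.0557), and Mir301 was at background on all 6 arrays. Mir505 had the largest fall, from 10.7, 10.8 and 10.7 to 8.27, 8.15 and 7.67. Mir155, known as a microRNA of activated lymphocytes, read 7.67, 8.30 and 7.60 and then 7.34, 6.89 and 7.17, a fall of 0.72 on the log2 scale.

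Neutrophil markers were higher in native than in activated KO arrays, mainly on native arrays 1 and 3. Of 13 neutrophil genes 6 fell (46.2%) and 1 rose (7.69%) with array 3, against 11.4% and 8.72% of all genes. Without it 7 fell and 1 rose. Their mean level lay at 8.27, 5.95 and 7.65 on the native arrays and at 5.67 to 5.74 on the activated ones, so that native arrays 1 and 3 were high and array 2 was near the activated level. Ngp, a neutrophil granule protein, read 11.1, 7.26 and 10.3 and then 5.20, 5.31 and 5.62, and Lcn2, another granule protein, 11.1, 7.05 and 10.1 before background. Lyz2, lysozyme of myeloid cells, read 9.62, 6.51 and 9.02 before background, whereas the macrophage genes Csf1r, Adgre1 and C1qa were at background in both groups. The gene that rose was Mmp9, a secreted protease that is not restricted to neutrophils, at 8.77, 9.36 and 6.34 after 6.51, 5.29 and 5.75.

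Among the other marker lists, macrophage and dendritic cell genes fell for 4 of 19 members (21.1%) and B and plasma cell genes for 3 of 12 (25%). Erythroid and platelet genes fell for 4 of 7 (57.1%). Of all genes 11.4% fell. None of these lists had a rise with all arrays. Without array 3 there was 1 rise, in the macrophage and dendritic cell list. Most members of the macrophage and dendritic cell list (15 of 19) and of the B cell list (9 of 12) were not called. Of 3 genes of CD4 T cells, Zbtb7b, the factor of the CD4 lineage, rose in both fits, from 5.89, 5.88 and 6.06 to 7.37, 8.05 and 6.65, by at least 1.06, and Cd4 and Cd40lg were at background. Slc4a1, the red cell anion exchanger, read 9.26, 8.74 and 9.65 and Car1 10.2, 10.1 and 10.9 in native cells, both at background in activated cells. Ms4a1 and Pax5, defining genes of B cells, were at background in both groups. Of 8 MHC class II genes 4 fell (50%, against 11.4% of all genes), among them Cd74, the invariant chain, from 8.83, 6.97 and 7.83 to background. The largest fall of this list was that of H2-Ob, from 10.04, 10.2 and 10.1 to 6.57, 8.46 and 6.02. Unlike Cd74, H2-Ob was even over the native arrays. H2-Ab1, the beta chain of I-A, went the other way on arrays 1 and 2: it read 7.64, 5.66 and 6.90 in native and 8.41, 9.95 and 5.64 in activated cells, while H2-Aa, its alpha chain partner, was at background on all 3 activated arrays. H2-Ab1 passed the test only without array 3 (2.45, adjusted p = 0.00722). The part of other cells in the falls listed above was not tested.

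The activated arrays had a recurring order. Over the 2694 genes whose activated KO arrays spanned more than 1 on the log2 scale, array 1 lay between the other two for 78.8%, array 2 for 19.3% and array 3 for 1.93%. For comparison, 128 genes spanned more than 1 over the native KO arrays and 647 over the activated WT arrays. The 10 genes whose difference changed most when array 3 was left out were chosen for that change, so array 3 is at one end of their values by choice. Scd1, Ctla4, Egln3, H2-Ab1 and Ndrg1 were lowest on array 3 and highest on array 2. Ifng, Ccl3, Ccl9, Ifitm3 and Srsy were highest on array 3 and lowest on array 2: Ccl9, a chemokine, read 6.36, 5.56 and 8.91, and Ifitm3, an antiviral membrane protein, 9.75, 8.01 and 11.4. Array 3 thus matched arrays 1 and 2 for Il2ra, Gzmb, Mki67 and Bub1 but not for hypoxia-related, lipid or several cytokine genes.

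The response of KO cells was set against that of WT cells in the same fit. The comparisons share no array, but KO and WT arrays of one state and replicate share an experiment number. Anything common to the arrays of an experiment enters both responses. The overlaps and the correlation below are therefore not agreement between independent comparisons. Of the 1739 genes that rose in KO cells 1548 (89.0%) also rose in WT cells, which is 79.9% of the 1937 that rose there. Of the 2263 that fell 1857 (82.1%) fell in WT cells, 85.6% of the 2170 there. No gene was called in opposite directions. Across genes, which are not independent replicates, the differences correlated at r = 0.959 with array 3 and 0.954 without it. The fit took all arrays as independent. What an experiment number stands for is not stated in the sample descriptions. The difference of the responses was called for 0 genes in limma, 0% of those tested, with and without array 3. At an unadjusted p under 0.05 it held 86 genes (0.431%) with array 3 and 414 (2.08%) without. The precision limits this comparison. At the median standard error of 0.22 the unadjusted 95% interval of a difference between responses reached 0.48 to either side, and 0.39 without array 3. Smaller differences could not be detected in a typical gene, and a call after adjustment over all genes took a larger one. Retnlg, at -2.15, was not called in this fit, so 0 calls do not show that the responses were equal. With the experiment number as a fixed block the count stayed at 0 with all arrays, and without array 3 it was 6: Gzmd, Gzme, Tjp1 and Usp18 with a higher and Retnlg and Jchain with a lower response in KO cells. Their limma adjusted p-values lay between 0.00114 and 0.0182 in that fit and at 1 with all arrays.

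**Figure D5:**
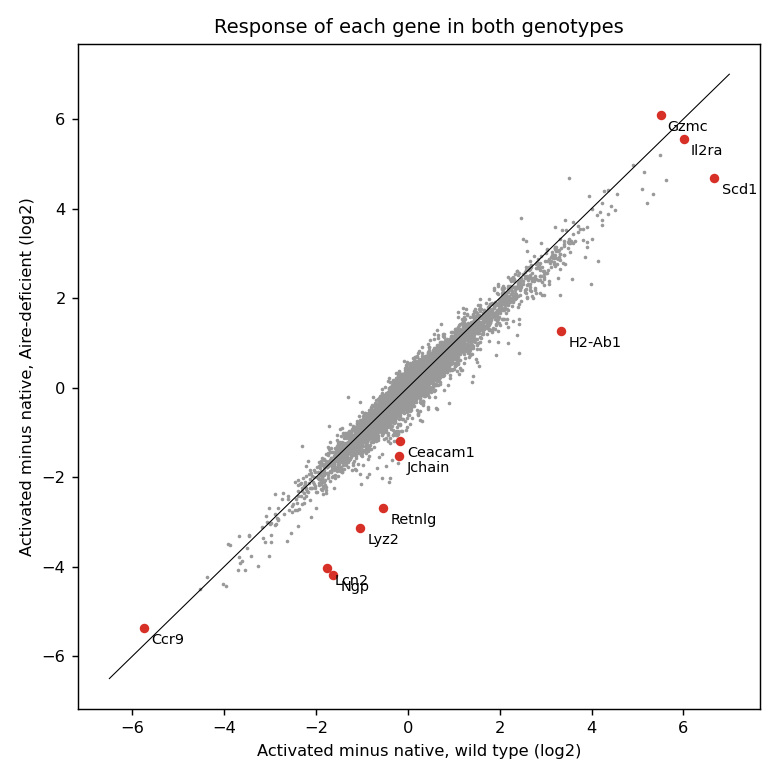
Each point is 1 gene: its activated minus native difference in WT cells (horizontal) and in KO cells (vertical), log2, all arrays, with the line of equality and red points for genes discussed in the text. Retnlg, Lyz2, Ngp and Lcn2 lie below the line, with Retnlg at -2.69 in KO and -0.54 in WT cells.

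The genes with the smallest unadjusted p for a stronger fall in KO cells were Retnlg, Ceacam1, Jchain, Slc43a1 and Wfdc17, none of which passed adjustment in the fit without the experiment number. Retnlg, a resistin-like protein of neutrophils, read 8.49, 7.74 and 8.21 in native KO and 6.56, 6.10 and 5.48 in native WT cells, and was at background in activated cells of both genotypes. Its responses differed by -2.15 (unadjusted p = 0.000104). Jchain, the joining chain of secreted antibodies, read 7.36, 6.84 and 6.23 in native KO against 5.68, 5.48 and 5.24 in native WT cells. For both genes the genotypes thus lay apart in the native state. The neutrophil list as a whole had a median difference of -1.75 in KO and -0.48 in WT cells, with native WT means of 6.71, 5.83 and 5.43. In the other direction the smallest p-values belonged to Dcpp2, Gm13884, Clmn, Hoga1 and Speer6-ps1, all at background in both KO groups.

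The following genes of the activation programme had no called difference between the genotypes in the fits without the experiment number. Il2ra differed by 5.55 in KO and 6.01 in WT cells, and Gzmb by 4.82 and 5.15. Ccr2 differed by 3.27 in KO and 2.56 in WT cells (unadjusted p of the difference = 0.0271) and Klrk1 by 2.37 and 3.07 (unadjusted p = 0.0193). For Egln3, one of the genes lowest on array 3, the KO difference was 2.82 with that array and 4.198 without it, and the WT difference 4.15. For Ccr7, also lowest there, it was -2.14 with the array and -1.51 without it, and -1.93 in WT cells, so leaving the array out moved the value to the other side of that of WT cells. Scd1 lay at 11.6, 11.3 and 11.9 on the activated WT arrays. The median difference of the mitosis list was 2.83 in KO and 3.08 in WT cells, and that of the small nucleolar RNA genes -0.97 and -0.65.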

How the data were processed

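The deposited table held log2 expression values of 35556 transcript clusters on 12 arrays, 3 per group. Per the submitters' processing notes, Partek software and the RMA method were used by the authors; no source at hand states versions or options. RMA can compress differences near background. Gene names came from GEO's platform annotation, updated by Entrez identifier to GRCm38.p6: 21789 had 1 symbol, 1621 several and 12146 none. The brightest cluster of a gene over all arrays was kept (999 genes had several). Group means were fitted over all 12 arrays with limma 3.58.1 in R 4.3.3 (lmFit, eBayes, no trend, not robust), with Benjamini-Hochberg adjustment over 19938 genes and calls at an adjusted p under 0.05. The same fit was run without activated KO array 3. The fit was tested on simulated data. Errors are standard errors. The number of arrays limits the precision.

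Where a gene was at background in 1 group, the bound replaces its level by that array's olfactory percentile or its own value, whichever is higher. Members and gene lists were chosen with earlier results of these data known. Named genes are the 10 largest rises and falls called in both fits without overlap, anchors and extremes of each list, the 5 smallest p-values per direction for the difference of responses, the 5 genes moved most each way by array 3, called microRNA genes and marker genes; further list members were named after their values were seen. Alternatives were a replicate block, quantile and median normalization, a filter on dim genes, all clusters, mean rows, array weights, trend and robust eBayes, KO arrays only, each array left out and, added after seeing the data, the experiment number as a block. Scan dates and slides were not used here.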

Additional observations from a re-analysis of the deposited data

Results flagged for a closer look

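Of 13767 transcript clusters that carry no single gene symbol and so were outside the comparison of genes, 683 were called higher and 2588 lower on activation of KO cells when all clusters were fitted together with limma. These clusters have no gene name here, and what they read was not tested.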

How the results depend on the processing

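The count of called genes, 4002 with all arrays, was 7526 over all transcript clusters, 2330 with the 6 KO arrays only and a replicate block, and 6932 with array weights, which gave activated array 3 a weight of 0.0959. Rises numbered 2910 with a replicate block and no array 3, 1147 with the KO arrays and a replicate block, 2895 with the other 5 KO arrays, 2643 after quantile normalization and 3516 with array weights. Falls numbered 4980 over all clusters, 1394 with the KO arrays only, 1183 with those and a replicate block, and 3416 with array weights; the causes were not tested. Leaving out 1 array gave 2823 to 4891 calls, 1223 to 2668 rises and 1535 to 2683 falls. The difference of responses was called for 0 genes in each fit that held both genotypes and had no fixed experiment block, with 35 to 817 genes at an unadjusted p under 0.05. The experiment number was added as a block after seeing the data: as a fixed block it gave 0 calls with all arrays (128 unadjusted) and 6 without array 3 (1246 unadjusted), and as a random block 0 and 0. As a random block and without array 3 it gave 2836 rises of KO cells. KO and WT arrays of one experiment deviated together at r = 0.58, 0.40 and 0.16 in native and 0.69, -0.02 and -0.01 in activated cells. The replicate block alone gave 1891 rises and 2523 falls. Same-numbered KO arrays deviated together at r = 0.34, -0.14 and 0.26, so the numbers were not taken as a pairing.

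Some genes that were not called with all arrays turned in sign. Without activated array 3, Ccl9 was at -0.28, Cd3d at 0.14 and Tbx21 at 0.0397, and the other 5 KO arrays alone gave the same values. With a replicate block and no array 3, Ccl9 was at -0.29 and Cd3d at 0.18. With the experiment number as a random block and no array 3, Ccl9 was at -0.29, Cd3d at 0.13 and Tbx21 at 0.0159. With array weights Cd3d was at 0.0624, and after quantile normalization Tbx21 was at 0.0232. Leaving out 1 array, the difference ranged from -2.14 to 0.0259 for Ccl3, from -0.28 to 1.39 for Ccl9, from -0.92 to 0.14 for Cd3d, from -0.26 to 2.06 for Ctla4, from -1.89 to 0.26 for Ifng and from -0.35 to 0.0397 for Tbx21. With 3 arrays a group, the 95% interval of a typical gene's KO difference reached 0.34 to either side.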
